A study of Mus musculus with 18 samples.

Results

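The collagen chain genes are the genes whose symbols have the form Col, a number, a and a number, one gene for each alpha chain. Of the 23420 gene symbols in the count table of NIH-3T3 cells, 44 had this form. A summed count under 90 over the 18 libraries was taken as unexpressed, which left 29 expressed members, and the same 29 passed the expression filter of the test. Just inside this limit stood Col22a1 with 97 counts in all, and just outside it Col14a1 with 77. The unexpressed members were Col14a1, Col9a2, Col4a4, Col6a5, Col9a1, Col6a6, Col4a3, Col15a1, Col23a1, Col8a2, Col24a1, Col25a1, Col13a1, Col19a1 and Col26a1, of which the last 3 had no count. Col4a3bp, which encodes a ceramide transfer protein, has a longer symbol and was not a member.

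NIH-3T3 cells are immortalized mouse fibroblasts that were first taken from embryos. Wild-type (WT) cells and an Nrf1KO line of the same cells, in which Nrf1 (gene symbol Nfe2l1) had been knocked out with CRISPR/Cas9, were grown in DMEM with fetal bovine serum. Each line received DMSO as vehicle, or 200 nM carfilzomib (CFZ), an irreversible inhibitor of the proteasome, for 6 h or for 24 h. There were 3 biological replicates in each of the 6 groups, and no time was given for DMSO. Whether the Nrf1KO line is a single clone was not stated in the sources used here, so line and genotype cannot be told apart. RNA was measured in bulk, where fewer cells of a type and less RNA per cell cannot be told apart.

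Alpha chains wind into the helical trimers of collagen inside the endoplasmic reticulum, after prolines and lysines of the chains have been hydroxylated, and the trimer is then secreted, trimmed and cross-linked. Fibroblasts are known for making the fibril-forming collagens (types I, III and V, with types XI and II in cartilage and type XXVII as a rarer form), the beaded filaments of type VI and the sheets of type IV in basement membranes. Other chains coat fibrils (the fibril-associated collagens), form short-chain networks (types VIII and X), anchor epithelia (type VII), span the cell membrane, or are trimmed into soluble fragments (type XVIII).

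The library totals ran from 8333148 to 23917081 counts, with a median of 14419832. Levels are CPM, each library's counts put on a common scale by total and by the trimmed mean of M-values (TMM), and called means a Benjamini-Hochberg adjusted p under 0.05 over 11762 genes from edgeR's quasi-likelihood test, with no minimum fold. Nfe2l1 ranged over 437 to 457 CPM in WT DMSO, 628 to 650.4 at 6 h and 555 to 580.0 at 24 h, against 174 to 185, 413 to 427 and 201 to 209.5 in the Nrf1KO cells, with no overlap of the lines at any treatment. All 5 fibroblast markers (Vim, Thy1, Pdgfra, Pdgfrb and S100a4) were expressed. Their summed level was 5858 to 6136 CPM in WT DMSO, 4474 to 4569.5 at 6 h and 2013 to 2084 at 24 h, and 6143 to 6302, 4537 to 4732 and 3891 to 4010.3 in the Nrf1KO cells, so it was lower after CFZ, as the collagen sum was, and its part in the results below was not tested. Of the 4 markers of chondrocytes, which make cartilage collagens, only Sox9 had a mean of at least 1 CPM. Acan and Comp were below that mean and Matn1 had no count, so the chondrocyte sum is nearly that of Sox9 alone. The chondrocyte sum was 199 to 221 CPM in WT DMSO, 216 to 219 at 6 h and 197 to 211 at 24 h, and 171 to 207, 258 to 286 and 346 to 446 in the Nrf1KO cells. The 4 osteoblast markers summed to at most 0.318 CPM in any library, the 4 adipocyte markers to at most 0.825, the 4 skeletal muscle markers to at most 2.54, the 4 endothelial markers to at most 4.33 and the 4 leukocyte markers to at most 5.88, and the 4 epithelial markers, of which Epcam and Krt18 had no count, to at most 13.0.

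Promoter sequence was available from RefSeq (GRCm38.p6) for 35 of the 44 members, 23 of them expressed, as the 250 bases before the annotated start. The following stretches are shown for the most abundant chain, for the chain with the largest fall in WT cells, for the fibril-associated chain with deep falls in both lines and for a chain that was higher at 24 h in both lines. Capitals mark TATAAA in Col3a1 and Col10a1, GGGCGG in Col1a2, and GGGCGG and CCAAT in Col16a1. The Col1a2 stretch is the 123 bases of its window that hold no annotated exon, and the Col16a1 window overlaps an exon of Gm12963. RefSeq and GENCODE differ in the start of Col1a2, so that its stretch lies inside the gene as GENCODE bounds it.
Col1a2, chr6:4505370-4505492, plus strand: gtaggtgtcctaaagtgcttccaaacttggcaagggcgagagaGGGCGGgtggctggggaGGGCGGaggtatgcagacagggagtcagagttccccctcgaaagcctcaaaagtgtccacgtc
Col3a1, chr1:45311288-45311537, plus strand: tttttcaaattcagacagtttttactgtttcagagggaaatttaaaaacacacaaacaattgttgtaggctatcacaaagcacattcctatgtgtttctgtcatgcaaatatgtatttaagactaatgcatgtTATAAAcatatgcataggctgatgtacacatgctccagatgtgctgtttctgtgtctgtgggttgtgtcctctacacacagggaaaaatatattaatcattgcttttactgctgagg
Col16a1, chr4:130047590-130047839, plus strand: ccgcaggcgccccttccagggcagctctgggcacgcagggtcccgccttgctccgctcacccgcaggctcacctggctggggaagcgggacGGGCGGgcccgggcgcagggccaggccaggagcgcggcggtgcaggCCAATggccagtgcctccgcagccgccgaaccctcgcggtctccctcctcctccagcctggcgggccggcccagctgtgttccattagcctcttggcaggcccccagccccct
Col10a1, chr10:34389731-34389980, plus strand: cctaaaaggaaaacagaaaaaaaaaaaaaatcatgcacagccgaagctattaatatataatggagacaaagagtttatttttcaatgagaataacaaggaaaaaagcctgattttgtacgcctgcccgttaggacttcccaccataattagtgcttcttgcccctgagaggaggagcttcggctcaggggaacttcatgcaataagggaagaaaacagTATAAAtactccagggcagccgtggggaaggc
On either strand, the GC box GGGCGG was in the windows of 15 of the 23 expressed members and in 32.7% of all 32851 mouse windows. CCAAT was in those of 11 members and in 33.8% of all windows. TATAAA was in those of 4 members and in 12.4%. The antioxidant response core TGACNNNGC was in those of 3 members (Col4a2, Col6a2 and Col7a1) and in 10.2%, and the longer ER stress response element, which itself holds a CCAAT, in none of them and in 0.113%. A member was counted once if any of its windows held the letters, whereas the percentages are of single windows, so the 2 are not in the same unit. The 35 members had 38 windows in all. These matches describe letters in a window and not sites.

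Collagen reads took a smaller share of all counts after CFZ, and most of that difference came between 6 h and 24 h. All members together took 3.23% ± 0.0944 of all counts in the WT DMSO libraries (SD, n = 3 throughout), 2.4% ± 0.0797 at 6 h and 0.625% ± 0.014 at 24 h. The Nrf1KO cells gave 2.56% ± 0.246, 2.24% ± 0.102 and 0.688% ± 0.0749 in the same order. In both lines no 24 h library overlapped with any library of DMSO or 6 h. The make-up of what was left also shifted. Type I chains (Col1a1 and Col1a2) held 64.0% ± 0.216 of the collagen reads in WT DMSO and 38.0% ± 0.45 at 24 h, and 66.0% ± 1.46 and 45.4% ± 0.127 in the Nrf1KO cells. The type IV share went from 5.98% ± 0.0287 to 21.6% ± 0.277 in the WT cells and from 5.09% ± 0.261 to 10.9% ± 0.34 in the Nrf1KO cells. The basement membrane chains thus made up a larger part of the collagen reads after 24 h in every library of both lines, and the larger part in the WT cells. The type VI share went from 13.5% ± 0.298 to 21.2% ± 0.355 and from 12.1% ± 0.253 to 23.3% ± 1.25. These shares carry no test.

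**Figure D1:**
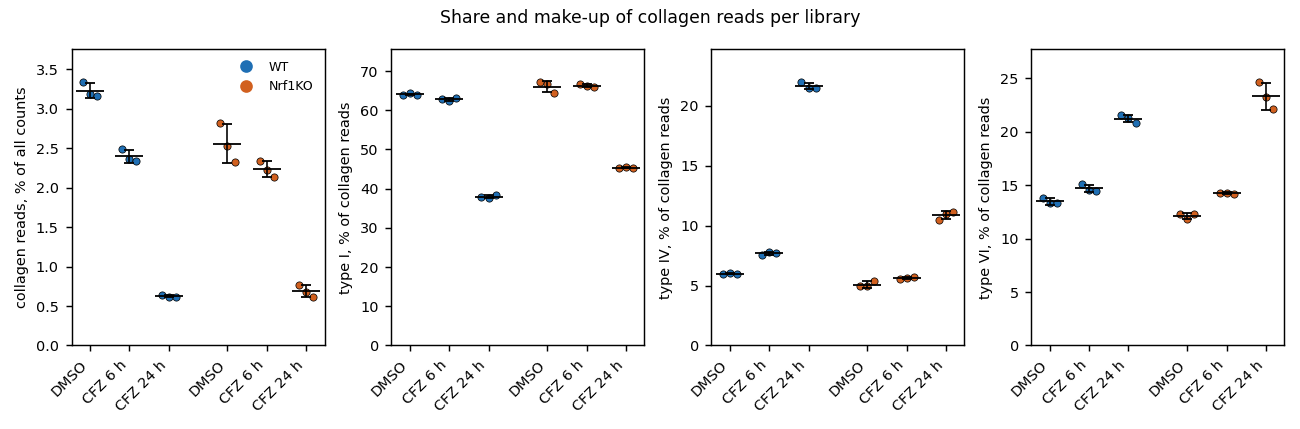
Share of all counts taken by the collagen chain genes (left) and share of the collagen reads held by types I, IV and VI, in percent, for each library (points, WT blue and Nrf1KO orange) with mean and SD (black, n = 3). At 24 h the collagen share was 0.625% in WT and 0.688% in Nrf1KO cells, and the type IV share 21.6% and 10.9%.

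To ask how each chain responded to CFZ, each time was compared with DMSO of the same line. At 6 h in the WT cells 18 of the 29 members were lower (36.2% of all genes tested), 1 was higher (35.6% of all genes) and 10 were not called. The higher one, Col4a2, was no longer called without replicate 3 of WT DMSO (adjusted p = 0.0921) or replicate 1 of WT CFZ 6 h (adjusted p = 0.0623), and without replicate 3 of Nrf1KO CFZ 24 h the count was 2. At 24 h 21 were lower (40.5%), 4 were higher (43.2%) and 4 were not called. The Nrf1KO cells at 6 h had 14 lower (35%) and 5 higher (34.5%), and at 24 h 21 lower (41.1%) and 4 higher (44.4%). The median log2 fold change of the members was -0.30 and -1.36 in the WT cells at 6 h and 24 h, against -0.02 and 0.02 over all genes. In the Nrf1KO cells it was -0.12 and -1.02, against -0.01 and 0.03. Without Col22a1, which had few counts, the members' medians were -0.28, -1.39, -0.12 and -0.98, in the same order. A fall of at least 2-fold was called for 18 members in the WT cells at 24 h (14.5% of all genes) and for 15 in the Nrf1KO cells (15.2%), and a rise of that size for 3 members in each line (10.5% and 11.5%). At 6 h 3 members were lower (5.65%) and 0 higher (3.98%) by at least 2-fold in the WT cells, and 1 lower (4.26%) and 0 higher (3.3%) in the Nrf1KO cells. The 3 in the WT cells were Col3a1, Col18a1 and Col6a4. The 1 in the Nrf1KO cells was Col22a1, with few counts, and it was not called without replicate 3 of Nrf1KO DMSO (adjusted p = 0.0578), replicate 1 (0.0529) or 2 (0.0742) of Nrf1KO CFZ 6 h or with DESeq2 (0.0699). Between 6 h and 24 h of CFZ 20 members fell in each line (35.4% of all genes in the WT and 38.3% in the Nrf1KO cells), while 7 rose in the WT (36.9%) and 5 in the Nrf1KO cells (38.7%). With upper-quartile scaling or library size alone the median of all genes lay lower by up to 0.18 in the comparisons with DMSO, reached in the Nrf1KO cells at 24 h with library size alone (a shift of -0.18), and the members' medians stayed negative.

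Across the lines, 17 members were lower at 24 h in both (32.8% of all genes) and 2, Col10a1 and Col9a3, were higher in both (35.2%). Col6a3, Col5a3 and Col22a1 were called in opposite directions, and the share of all genes with opposite calls was not computed. Of these, Col22a1 had few counts, and the Nrf1KO call of Col6a3 was lost under several alternatives given below. Among the 17 members with a mean of at least 10 CPM, 15 were lower in the WT cells at 24 h (40.5% of all genes tested) and 16 in the Nrf1KO cells (41.1%). In each line 1 of them was higher (43.2% and 44.4%). These shares cover genes of every level, and the share among genes of at least 10 CPM was not computed. As a description over the 29 members, which share the same libraries, the log2 fold change at 24 h went with the mean log2 CPM at r = -0.57 (rho = -0.49) in the WT cells and r = -0.30 (rho = -0.19) in the Nrf1KO cells. These coefficients include Col22a1, which had few counts, and were not computed without it.

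**Figure D2:**
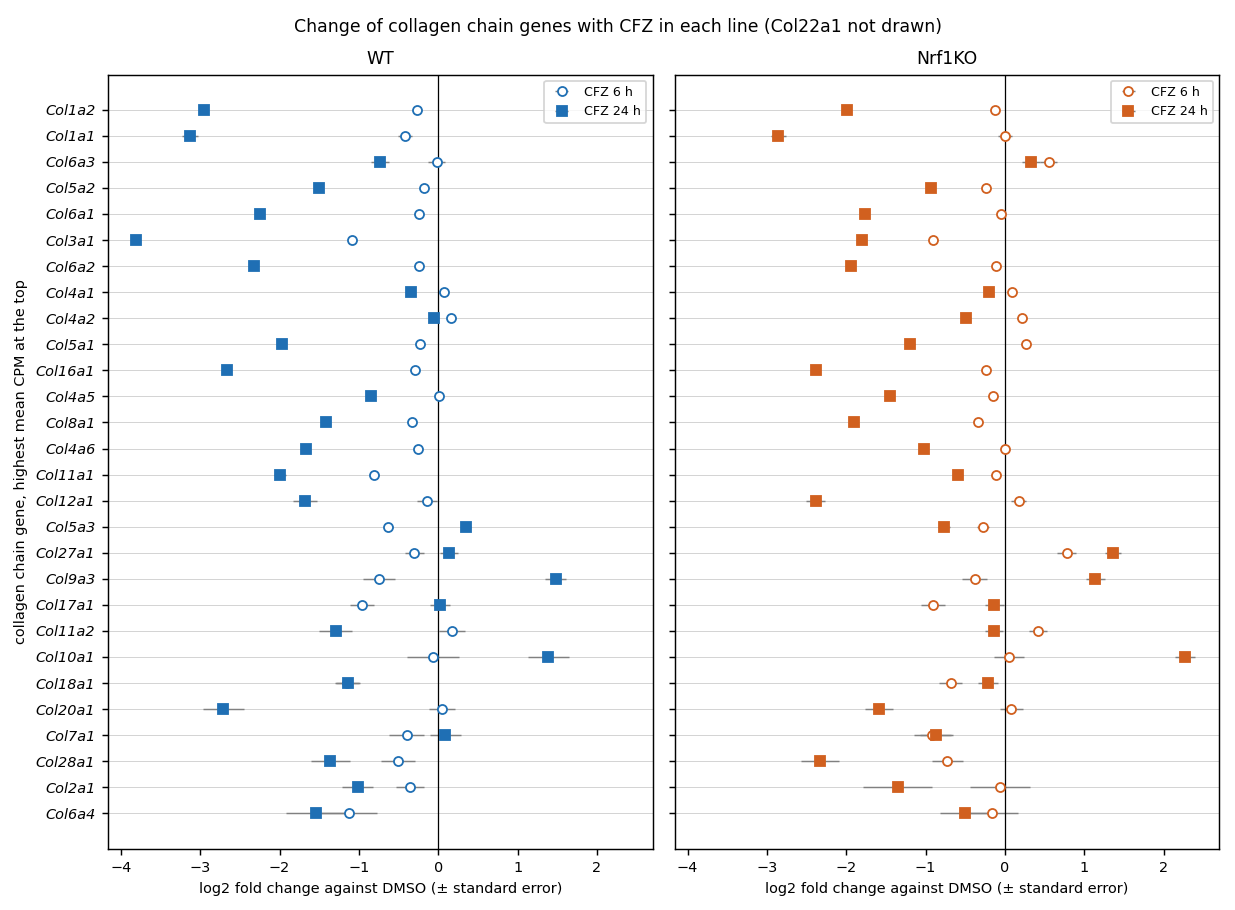
Log2 fold change against DMSO of the same line for 28 expressed members, ordered by mean CPM, at 6 h (open circles) and 24 h (filled squares) of CFZ in WT (left) and Nrf1KO cells (right), with standard errors. Most abundant chains lie far left of 0 at 24 h, Col3a1 at -3.80 in WT and -1.80 in Nrf1KO cells, and Col10a1 and Col9a3 lie right of 0 in both panels.

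Type I collagen, the main protein of skin, bone and tendon fibrils, is built from the chains of Col1a1 (chr11:94936224-94953042, GRCm38) and Col1a2 (chr6:4504814-4541544). Per kilobase of transcript Col1a2 was the most abundant member in WT DMSO with 2273 CPM per kb, followed by Col1a1 with 1284. Col1a1 stood at 7975, 7569 and 7295 CPM in WT DMSO, 6049, 5442 and 5564 at 6 h and 916, 835 and 867 at 24 h. In the Nrf1KO cells Col1a1 read 6971, 5809 and 4721 CPM in DMSO, 6484, 5753 and 5258 at 6 h and 946, 798 and 676 at 24 h. All 24 h libraries lay far below the others in both lines, the WT libraries were lower at 6 h than in DMSO, and the Nrf1KO libraries of DMSO and 6 h overlapped. The log2 fold change of Col1a1 at 24 h was -3.13 (standard error 0.0993, adjusted p = 1.70e-23) in the WT and -2.85 (standard error 0.0982, adjusted p = 1.24e-22) in the Nrf1KO cells. Col1a2 stood at 12536, 12005 and 11932 CPM in WT DMSO, 10465, 10044 and 9802 at 6 h and 1559, 1545 and 1597 at 24 h. For the same gene the Nrf1KO values were 10716, 9717 and 9111 CPM in DMSO, 9237, 8946 and 8839 at 6 h and 2686, 2459 and 2268 at 24 h. Each WT group stood apart from the next, and at 24 h every Nrf1KO library was above every WT library. At 24 h Col1a2 changed by -2.96 (standard error 0.051, adjusted p = 1.95e-30) in the WT and -1.99 (standard error 0.049, adjusted p = 1.62e-26) in the Nrf1KO cells.

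Type III collagen, which forms mixed fibrils with type I, is a trimer of the Col3a1 chain (chr1:45311538-45349706). Col3a1 stood at 1639, 1516 and 1624 CPM in WT DMSO, 759, 785 and 700.3 at 6 h and 111, 116 and 114 at 24 h. In the other line the Nrf1KO values were 1390.3, 1324 and 1299.6 CPM in DMSO, 715, 721 and 695 at 6 h and 399, 384 and 367 at 24 h. Col3a1 stepped down at both times with no overlap between the groups of a line, and at 24 h the Nrf1KO libraries were all above the WT libraries. At 6 h the log2 fold change was -1.09 (standard error 0.0403, adjusted p = 3.69e-21) in the WT and -0.91 (standard error 0.0404, adjusted p = 5.76e-19) in the Nrf1KO cells. By 24 h it had reached -3.80 (standard error 0.0464, adjusted p = 2.30e-34) in the WT cells, the largest fall of any fibrillar chain, and -1.80 (standard error 0.0414, adjusted p = 2.74e-27) in the Nrf1KO cells. Col5a2 lies next to Col3a1 on chromosome 1, tail to tail and 24614 bases apart.

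Type V collagen sits inside type I fibrils and limits their width, and its usual chains are those of Col5a1 (chr2:27886425-28039514) and Col5a2 (chr1:45374321-45503282). Col5a1 stood at 748, 733 and 718 CPM in WT DMSO, 666, 619 and 594 at 6 h and 188, 187 and 185 at 24 h. For Col5a1 the Nrf1KO values were 486, 425 and 394 CPM in DMSO, 540.3, 513 and 509 at 6 h and 214, 184 and 170.3 at 24 h. At 6 h Col5a1 was below DMSO in every WT library and above DMSO in every Nrf1KO library, and all 24 h libraries were lowest. Its log2 fold change at 6 h was -0.23 (standard error 0.057, adjusted p = 7.50e-04) in the WT and 0.26 (standard error 0.0582, adjusted p = 1.95e-04) in the Nrf1KO cells, and at 24 h -1.97 (standard error 0.0612, adjusted p = 8.52e-24) and -1.20 (standard error 0.0603, adjusted p = 3.02e-18). Col5a2 stood at 1720.1, 1709 and 1685 CPM in WT DMSO, 1520.2, 1527 and 1474 at 6 h and 604, 602 and 605 at 24 h. For Col5a2 the Nrf1KO values were 1102, 1045 and 1054 CPM in DMSO, 928, 894 and 883 at 6 h and 588, 549 and 535 at 24 h. The 3 groups of each line did not overlap and followed the same order, and the lines were far apart in DMSO and close at 24 h. Col5a2 fell by 1.5 on the log2 scale at 24 h in the WT and by 0.94 in the Nrf1KO cells. Col5a3, the third type V chain, moved apart from its partners: it was called higher at 24 h in the WT cells (0.35) and lower in the Nrf1KO cells (-0.77), from 57.6 ± 4.7 and 25.7 ± 2.86 CPM in DMSO (SD, n = 3).

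Of the 10 expressed fibrillar chains, 8 were lower in the WT cells at 24 h (40.5% of all genes) and 8 in the Nrf1KO cells (41.1%), with 1 higher in each (43.2% and 44.4%). The largest rise belonged to Col27a1, a fibrillar chain with a shortened helix. Col27a1 stood at 6.9, 6.32 and 7.29 CPM in WT DMSO, 5.76, 4.88 and 5.95 at 6 h and 6.51, 7.67 and 7.93 at 24 h. In the Nrf1KO line Col27a1 values were 3.81, 4.71 and 4.86 CPM in DMSO, 7.26, 8.03 and 8.15 at 6 h and 12.0, 10.9 and 12.1 at 24 h. The WT libraries of DMSO and 24 h overlapped, whereas the Nrf1KO groups stepped upwards without overlap. Col27a1 changed by 0.78 (standard error 0.122, adjusted p = 1.54e-06) at 6 h and 1.36 (standard error 0.104, adjusted p = 1.46e-13) at 24 h in the Nrf1KO cells. Col11a1, a cartilage fibril chain that fibroblasts also make, fell by 1.99 in the WT and 0.59 in the Nrf1KO cells on the log2 scale. Col2a1, the main chain of cartilage fibrils, stood at 3.19 ± 0.655 CPM in WT DMSO and 0.585 ± 0.0659 in Nrf1KO DMSO (SD, n = 3), and was lower at 24 h in both lines (-1.01 and -1.35). Col11a2, which pairs with Col11a1 in cartilage, fell in the WT cells (-1.29) and went from 6.97 ± 0.419 to 6.39 ± 1.01 CPM in the Nrf1KO cells, where it was not called.

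**Figure D3:**
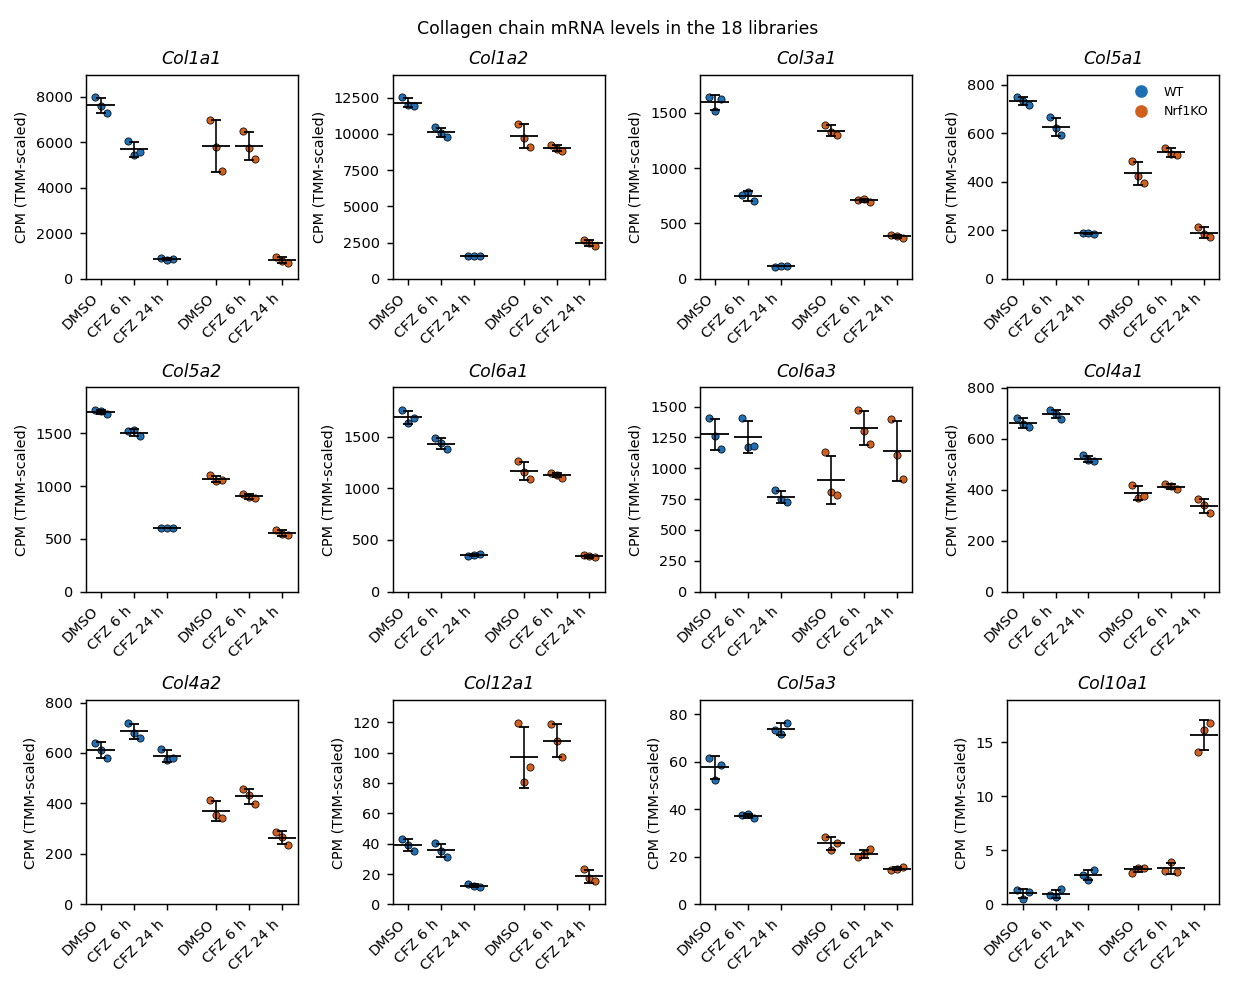
TMM-scaled CPM of 12 collagen chain genes in each library (points, WT blue and Nrf1KO orange) with mean and SD (black, n = 3), each panel on its own linear scale from 0. Within the WT cells Col1a1, Col1a2, Col3a1, Col5a1, Col5a2, Col6a1 and Col6a3 are lowest at 24 h, and Col5a3 is highest there. Col4a2 stands at 616, 571 and 581 CPM in WT cells at 24 h, and Col10a1 is highest in Nrf1KO cells at 24 h.

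Type VI collagen forms beaded filaments around cells from the chains of Col6a1 (chr10:76708792-76726168), Col6a2 (chr10:76595762-76623630) and the much longer Col6a3 (chr1:90765923-90843971). Col6a1 stood at 1758, 1633 and 1678 CPM in WT DMSO, 1487, 1436 and 1378 at 6 h and 346, 357 and 361 at 24 h. The same chain had 1262, 1154 and 1092 CPM in Nrf1KO DMSO, 1148, 1129 and 1105 at 6 h and 358, 344 and 331 at 24 h. Libraries at 24 h were lowest in each line and those of the lines overlapped there. Col6a2 stood at 1268, 1159.6 and 1179 CPM in WT DMSO, 1068, 1010.0 and 967 at 6 h and 244, 235 and 244 at 24 h. The Nrf1KO libraries held 841, 799 and 762 CPM of Col6a2 in DMSO, 748, 739 and 726 at 6 h and 216, 209 and 199 at 24 h. Col6a2, like Col6a1, was lowest at 24 h in every library of both lines. At 24 h the log2 fold change was -2.25 for Col6a1 and -2.32 for Col6a2 in the WT cells, and -1.76 and -1.94 in the Nrf1KO cells, all with adjusted p of at most 1.83e-26.

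Col6a3 did not follow the other type VI chains. Col6a3 stood at 1409, 1261 and 1156 CPM in WT DMSO, 1408, 1176 and 1185 at 6 h and 822, 754 and 729 at 24 h. The Nrf1KO cells had 1129, 807 and 786 CPM of Col6a3 in DMSO, 1472, 1305 and 1198 at 6 h and 1397, 1109 and 911 at 24 h. WT libraries overlapped between DMSO and 6 h and dropped at 24 h, while the Nrf1KO libraries at 6 h were all above DMSO and those at 24 h overlapped with DMSO. Col6a3 fell by 0.73 on the log2 scale at 24 h in the WT cells (standard error 0.11, adjusted p = 4.08e-07). In the Nrf1KO cells it rose by 0.55 (standard error 0.11, adjusted p = 5.42e-05) at 6 h. Its rise at 24 h there was 0.33 (standard error 0.11, adjusted p = 0.0066), and this call was lost without replicate 1 of Nrf1KO CFZ 24 h (adjusted p = 0.225), without replicate 2 (0.0594) or 3 (0.0708) of Nrf1KO DMSO, with library size alone (0.184), upper-quartile scaling (0.0571) or DESeq2 (0.0931). The fourth expressed member, Col6a4, had at most 1.66 CPM in any library, and was lower in the WT cells at 24 h (-1.54).

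Type IV collagen is the sheet-forming collagen of basement membranes. Its common trimer holds chains of Col4a1 (chr8:11198423-11312826) and Col4a2 (chr8:11312805-11449287), which are transcribed in opposite directions from starts 21 bases apart, so that their ends overlap by 22 bases in the annotation. Col4a1 stood at 682, 659 and 645 CPM in WT DMSO, 713, 698 and 679 at 6 h and 535, 518 and 511 at 24 h. In Nrf1KO cells Col4a1 measured 417, 368 and 375 CPM in DMSO, 421, 413 and 401 at 6 h and 363, 340.1 and 309 at 24 h. WT libraries of DMSO and 6 h overlapped and those of 24 h were lower, and each Nrf1KO library was below each WT library. Col4a2 stood at 641, 613 and 579 CPM in WT DMSO, 719, 679 and 659 at 6 h and 616, 571 and 581 at 24 h. In Nrf1KO cells Col4a2 measured 415, 354 and 342 CPM in DMSO, 457, 433 and 397 at 6 h and 288, 265 and 237 at 24 h. Col4a2 at 24 h overlapped with DMSO in the WT cells and lay below it in the Nrf1KO cells. The log2 fold change at 24 h was -0.35 (standard error 0.0448, adjusted p = 2.31e-08) for Col4a1 in the WT cells and -0.05 (standard error 0.0593, adjusted p = 0.398) for Col4a2, which was called lower there with upper-quartile scaling (adjusted p = 0.00332), library size alone (0.0114), no expression filter (0.00497) or only the groups compared (0.0143). In the Nrf1KO cells the values were -0.20 (standard error 0.0456, adjusted p = 2.20e-04) and -0.49 (standard error 0.0613, adjusted p = 1.19e-08). The WT values of both chains at 24 h were small beside those of the type I chains.

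The X-linked pair Col4a5 and Col4a6, whose chains form a trimer found in some specialised basement membranes, start 1309 bases apart in opposite directions. Col4a6 stood at 168, 156 and 164 CPM in WT DMSO, 138, 141 and 130.3 at 6 h and 54.6, 49.2 and 50.8 at 24 h. In Nrf1KO cells Col4a6 came to 147, 135 and 138 CPM in DMSO, 139, 139 and 141 at 6 h and 71.3, 72.2 and 63.6 at 24 h. Col4a6 fell in both lines at 24 h with no overlap, deeper in the WT cells (-1.67) than in the Nrf1KO cells (-1.02). Col4a5 did the reverse, with -0.85 in the WT and -1.44 in the Nrf1KO cells. Both neighbours thus changed their order of response between the lines, and the tests of these differences follow with the interaction.

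Among the fibril-associated collagens, Col12a1, whose long chain coats type I fibrils, and Col16a1 were the most abundant. Col12a1 stood at 43.0, 39.1 and 34.9 CPM in WT DMSO, 40.4, 34.9 and 31.6 at 6 h and 13.3, 12.5 and 11.2 at 24 h. In Nrf1KO cells Col12a1 reached 119, 80.9 and 90.5 CPM in DMSO, 119, 107 and 97.0 at 6 h and 23.5, 17.1 and 15.2 at 24 h. Nrf1KO libraries were above WT libraries at each treatment without overlap, and 24 h was lowest in both lines. Col12a1 changed by -1.68 (standard error 0.153, adjusted p = 1.00e-11) at 24 h in the WT and by -2.39 (standard error 0.119, adjusted p = 2.44e-18) in the Nrf1KO cells. Col16a1 changed by -2.67 and -2.38, from 610.1 ± 14.2 and 575 ± 7.86 CPM in DMSO (SD, n = 3). Col20a1 is a rare member of this class. Col20a1 stood at 3.65, 3.66 and 3.38 CPM in WT DMSO, 4.47, 3.35 and 3.24 at 6 h and 0.508, 0.66 and 0.434 at 24 h. In Nrf1KO cells Col20a1 had 4.4, 5.79 and 5.21 CPM in DMSO, 5.06, 5.56 and 5.88 at 6 h and 2.39, 1.33 and 1.52 at 24 h. Only the 24 h libraries were low, and its log2 fold change there was -2.71 (standard error 0.261, adjusted p = 3.95e-11) in the WT, close to that of Col16a1, and -1.59 (standard error 0.172, adjusted p = 5.62e-10) in the Nrf1KO cells. Col9a3, a chain of the type IX collagen that decorates cartilage fibrils, was higher at 24 h in both lines (1.48 and 1.14), from 3.53 ± 0.306 and 5.28 ± 0.997 CPM in DMSO. Of its exonic bases 6.07% overlap Tcfl5 on the opposite strand, and whether the authors counted by strand was not stated.

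Col22a1 was at the edge of detection. Its counts were 1, 1 and 2 in WT DMSO, 0, 0 and 0 at 6 h and 6, 15 and 15 at 24 h. In the Nrf1KO cells they were 15, 5 and 22 in DMSO, 3, 2 and 4 at 6 h and 0, 4 and 2 at 24 h. The WT cells had more at 24 h and the Nrf1KO cells more in DMSO, and both changes at 24 h were called, in opposite directions. Counts this low give no fold of use. For a library with 0 counts the usual counting limit is a level of about 3 counts, and a higher level is less likely but possible.

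The short-chain collagens went opposite ways. Col8a1, a chain of the networks under vessel and corneal endothelium, read 221, 215 and 211 CPM in WT DMSO, 169, 174 and 171 at 6 h and 80.6, 82.7 and 78.2 at 24 h. Its Nrf1KO libraries read 288, 278 and 282 CPM in DMSO, 221, 223 and 224 at 6 h and 82.1, 75.2 and 70.0 at 24 h. Col8a1 stepped down at both times in each line without overlap, and at 24 h fell by 1.42 in the WT and 1.90 in the Nrf1KO cells on the log2 scale. Col10a1, the collagen of hypertrophic cartilage (chr10:34389981-34397085), did the opposite. Col10a1 stood at 1.37, 0.531 and 1.19 CPM in WT DMSO, 0.834, 0.728 and 1.43 at 6 h and 2.74, 2.28 and 3.22 at 24 h. In Nrf1KO cells Col10a1 had 2.95, 3.37 and 3.39 CPM in DMSO, 3.08, 3.94 and 3.0 at 6 h and 14.1, 16.1 and 16.8 at 24 h. The 24 h libraries were highest in each line, and every Nrf1KO library at 24 h was far above any other. Col10a1 changed by 1.39 (standard error 0.254, adjusted p = 9.68e-06) in the WT and 2.26 (standard error 0.125, adjusted p = 3.38e-17) in the Nrf1KO cells at 24 h.

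Of the remaining expressed members, Col18a1, whose end is released as endostatin, was read at 5.73, 4.9 and 6.17 CPM in WT DMSO, 2.65, 2.69 and 2.18 at 6 h and 3.05, 2.22 and 2.54 at 24 h. In Nrf1KO cells Col18a1 was at 5.12, 5.6 and 5.01 CPM in DMSO, 2.86, 3.71 and 3.12 at 6 h and 5.0, 4.11 and 4.5 at 24 h. It was already low at 6 h in the WT cells, by -1.15 (standard error 0.152, adjusted p = 5.66e-08), and stayed there at 24 h, -1.14 (standard error 0.149, adjusted p = 2.85e-08), while Nrf1KO libraries at 24 h lay between their 6 h and DMSO libraries. Col28a1, related to the type VI chains, ran at 2.28, 3.31 and 3.25 CPM in WT DMSO, 1.97, 1.38 and 2.79 at 6 h and 0.915, 1.14 and 1.24 at 24 h. In Nrf1KO cells Col28a1 ran at 4.01, 4.46 and 3.78 CPM in DMSO, 2.49, 2.39 and 2.4 at 6 h and 0.775, 0.444 and 1.21 at 24 h. Both lines were lowest at 24 h, by -1.36 and -2.34 on the log2 scale. Col17a1, the transmembrane collagen of epithelial attachments, dipped at 6 h in both lines (-0.96 and -0.91) and was back at 7.02 ± 0.195 and 6.34 ± 0.512 CPM at 24 h, against 6.91 ± 0.761 and 6.98 ± 0.552 in DMSO (SD, n = 3). Col7a1, the chain of anchoring fibrils, was lower in the Nrf1KO cells at 24 h (-0.86) and stood at 3.5 ± 0.638 CPM in the WT cells at 24 h, against 3.28 ± 0.548 in DMSO.

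The ratio of partner chains shows whether they moved together. Read per kilobase of transcript, the ratio of Col1a1 to Col1a2 was 0.574, 0.569 and 0.551 in the WT DMSO libraries, 0.521, 0.489 and 0.512 at 6 h and 0.53, 0.488 and 0.49 at 24 h. In the Nrf1KO cells it was 0.587, 0.539 and 0.467, 0.633, 0.58 and 0.536 and 0.318, 0.293 and 0.269. The Nrf1KO libraries at 24 h were below all the others. The ratio of Col6a3 to Col6a1 was 0.325, 0.313 and 0.28 in WT DMSO and 0.963, 0.856 and 0.821 at 24 h. The Nrf1KO libraries gave 0.363, 0.284 and 0.292 and 1.58, 1.31 and 1.12. Both lines shifted towards Col6a3 at 24 h, the Nrf1KO line further. The ratio of Col4a1 to Col4a2 was 1.04, 1.05 and 1.09 in WT DMSO, 0.847, 0.884 and 0.858 at 24 h, 0.981, 1.01 and 1.07 in Nrf1KO DMSO and 1.23, 1.25 and 1.27 at 24 h. That of Col4a5 to Col4a6 was 2.55, 2.64 and 2.53 in WT DMSO, 4.35, 4.58 and 4.58 at 24 h, 2.2, 2.24 and 2.23 in Nrf1KO DMSO and 1.65, 1.54 and 1.81 at 24 h. The type IV pairs moved in opposite directions between the lines, Col4a1 to Col4a2 down in the WT and up in the Nrf1KO cells, Col4a5 to Col4a6 up in the WT and down in the Nrf1KO cells, in each case with no overlap between DMSO and 24 h. The ratio of Col5a1 to Col5a2 was 0.343, 0.338 and 0.336 in WT DMSO and 0.245, 0.245 and 0.241 at 24 h. For the Nrf1KO line it was 0.348, 0.32 and 0.295 in DMSO, 0.459, 0.452 and 0.454 at 6 h and 0.287, 0.264 and 0.251 at 24 h, so that it was lowest at 24 h in both lines and highest in the Nrf1KO cells at 6 h. Col6a1 to Col6a2 ran from 1.34 to 1.6 over all 18 libraries, and the Nrf1KO libraries at 24 h (1.59, 1.59 and 1.6) were above all the others. With 3 libraries against 3, a two-sided exact permutation test of a ratio cannot give a p under 0.1, and no p is given.

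**Figure D4:**
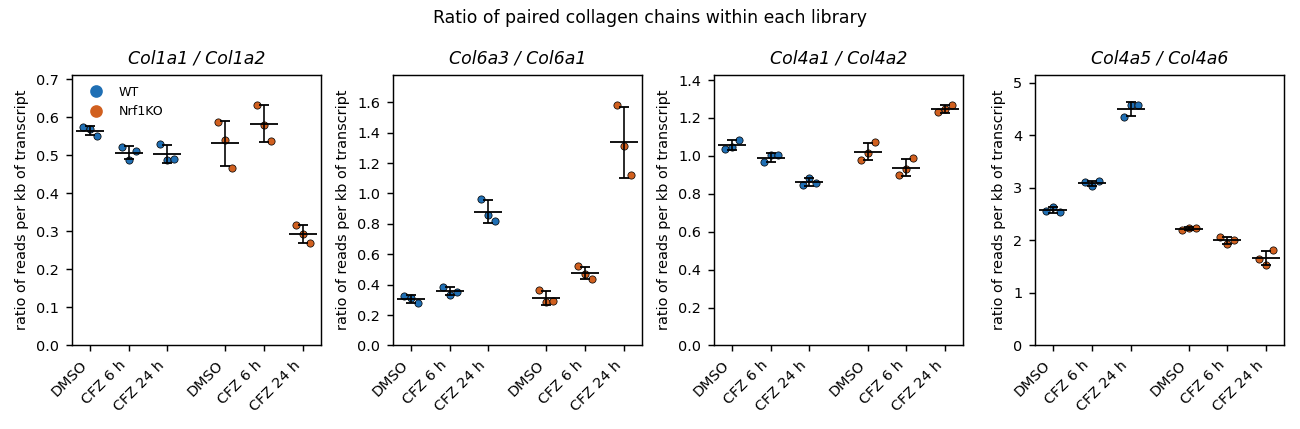
Ratio of the reads per kilobase of transcript of partner collagen chains in each library (points, WT blue and Nrf1KO orange) with mean and SD (black, n = 3). Col1a1 to Col1a2 is lowest in Nrf1KO cells at 24 h (0.318, 0.293 and 0.269), and the type IV ratios part between the lines at 24 h.

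To compare the lines before any drug, Nrf1KO DMSO was set against WT DMSO. Of the 29 members 17 were lower in the Nrf1KO cells (29.1% of all genes tested), 8 were higher (25.7%) and 4 were not called, with a median log2 difference of -0.22 against -0.02 over all genes. The call of Col16a1 (lower) was lost with upper-quartile scaling (adjusted p = 0.0586), library size alone (0.333), no expression filter (0.0961) or only the groups compared (0.0842). It was also lost without some single libraries (up to 0.261). Col11a1 (lower) was not called without replicate 1 of WT DMSO (0.164) or replicate 2 of Nrf1KO DMSO (0.0747). Col28a1 (higher) was not called without the same libraries (0.158 and 0.0693) or with DESeq2 (0.101). Among the 10 fibrillar chains 9 were lower and 1 was higher, and all 4 expressed type IV chains were lower. Most of these differences were small, and 2 members were lower by at least 2-fold (1.77% of all genes), Col2a1 (-2.38) and Col5a3 (-1.17). Among the abundant chains the differences were -0.78 (standard error 0.045, adjusted p = 1.74e-15) for Col4a1, -0.76 (standard error 0.0573, adjusted p = 1.23e-12) for Col5a1 and -0.68 (standard error 0.0341, adjusted p = 6.21e-17) for Col5a2. The type I chains differed by -0.38 (standard error 0.091, adjusted p = 6.28e-04) for Col1a1 and -0.30 (standard error 0.0472, adjusted p = 2.20e-06) for Col1a2. At least 2-fold higher in the Nrf1KO cells were 4 members (3.2% of all genes), Col22a1, Col10a1 (1.64), Col12a1 (1.30) and Col11a2 (1.17). After 6 h of CFZ 10 members were lower (30.8%) and 9 higher (30.5%) in the Nrf1KO cells, and after 24 h 9 were lower (36.4%) and 13 higher (35.6%). Lower at all 3 treatments were Col5a2, Col6a2, Col2a1, Col4a1, Col4a2, Col5a3 and Col4a5, which are 7 of the 29 (12.5% of all genes), and higher at all 3 were Col10a1, Col11a2, Col9a3, Col20a1 and Col12a1, which are 5 (12.6%). At 24 h the Col9a3 difference was not called without replicate 1 (adjusted p = 0.0529) or 3 (0.127) of WT CFZ 24 h, replicate 2 of Nrf1KO CFZ 24 h (0.069) or with DESeq2 (0.0984), and that of Col5a2 was not called without replicate 3 of Nrf1KO CFZ 24 h (0.0708) or with upper-quartile scaling (0.0531). At 24 h Col3a1 was higher in the Nrf1KO cells by 1.75 (standard error 0.045, adjusted p = 2.69e-25) and Col1a2 by 0.66 (standard error 0.0478, adjusted p = 1.14e-13), the reverse of their order in DMSO.

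The interaction of line and CFZ asks whether the response itself differed. It is the log2 response of the Nrf1KO cells minus that of the WT cells, so a positive value means a smaller fall or a larger rise in the Nrf1KO cells. At 6 h 9 members were positive (19.8% of all genes tested), 1 was negative (18.4%) and 19 were not called, so that 10 of the 29 were called against 38.3% of all genes. The negative one, Col4a5 (-0.16, adjusted p = 0.0103), was not called without replicate 2 of Nrf1KO CFZ 6 h (adjusted p = 0.053). At 24 h 16 were positive (29.7%) and 8 negative (30%), which is 24 of the 29 against 59.8% of all genes, with a median of 0.38 against 0.00 over all genes. Of the 10 fibrillar chains 7 were positive and 1 was negative. Col3a1 had the largest positive value at 24 h, 2.0 (standard error 0.0599, adjusted p = 2.18e-22), followed by Col11a1 with 1.40 (standard error 0.0976, adjusted p = 9.94e-14) and Col27a1 with 1.23 (standard error 0.152, adjusted p = 3.29e-08). Col1a2 gave 0.96 (standard error 0.0672, adjusted p = 1.15e-13) and Col6a3 1.06 (standard error 0.155, adjusted p = 6.61e-07). Col1a1, the partner of Col1a2, gave 0.27 (standard error 0.13, adjusted p = 0.0729) and was not called, although it was called with upper-quartile scaling (adjusted p = 0.0444), without an expression filter (1.45e-08), with the replicate block (0.00235), without replicate 1 of Nrf1KO DMSO (0.00212) or without replicate 3 of Nrf1KO CFZ 24 h (0.00502). On the negative side stood Col5a3 with -1.12 (standard error 0.0959, adjusted p = 1.20e-11), Col12a1 with -0.70 (standard error 0.21, adjusted p = 0.00468), Col4a5 with -0.59 (standard error 0.0519, adjusted p = 2.32e-11), Col8a1 with -0.48 (standard error 0.057, adjusted p = 1.38e-08) and Col4a2 with -0.43 (standard error 0.0853, adjusted p = 5.76e-05). For the paired type IV chains the interaction was thus positive for Col4a6 (0.65 (standard error 0.0672, adjusted p = 8.05e-10)) and negative for Col4a5. The interaction uses the same DMSO libraries as the comparisons above and is not independent of them.

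**Figure D5:**
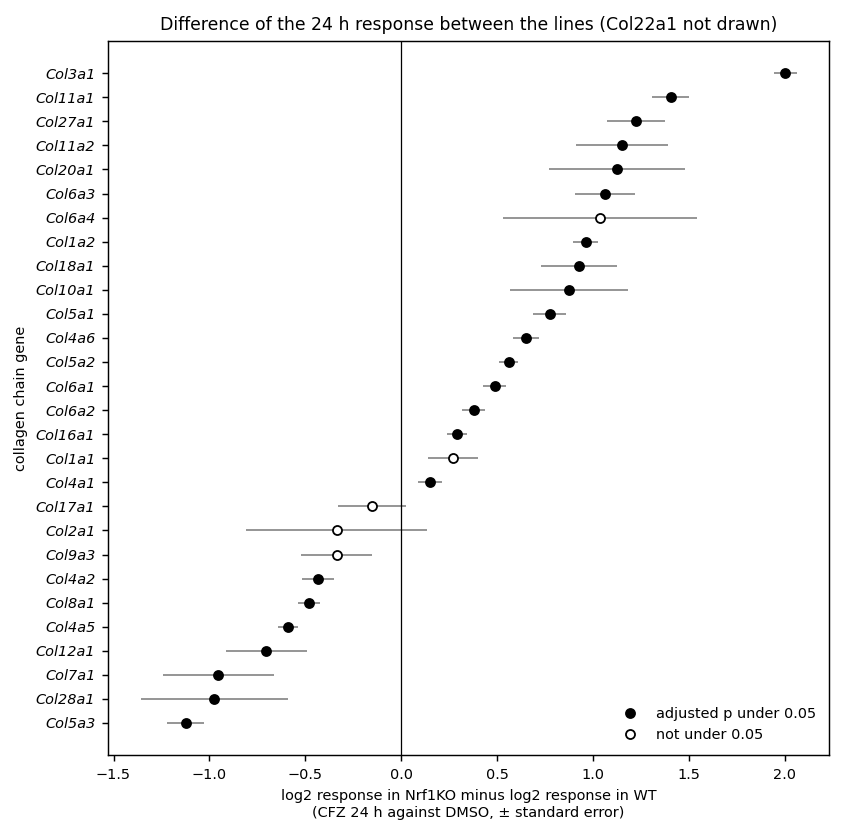
Log2 response to 24 h of CFZ in Nrf1KO cells minus that in WT cells for 28 expressed members, with standard errors; filled points had an adjusted p under 0.05. Col3a1 lies highest at 2.0 and Col5a3 lowest at -1.12.

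The genes that modify, fold, trim and cross-link the chains did not move as one group. Of 35 listed, 28 were tested. At 24 h 10 were higher (43.2% of all genes tested) and 16 lower (40.5%) in the WT cells, and 9 higher (44.4%) and 17 lower (41.1%) in the Nrf1KO cells, with medians of -0.38 and -0.37. The prolyl 4-hydroxylase subunits P4ha1 and P4ha2 rose at both times in both lines. P4ha1 changed by 0.74 at 6 h and 0.62 at 24 h in the WT cells. Its Nrf1KO values were 0.94 and 0.99. P4ha2 changed, in the same order, by 1.02, 1.03, 1.77 and 1.58. P4hb, their shared partner subunit, gave 0.13, -0.43, 0.16 and -0.37. Plod2, a lysyl hydroxylase, rose by 0.92 at 24 h in the WT and 1.55 in the Nrf1KO cells, and P3h1, a prolyl 3-hydroxylase, by 0.91 in the WT cells. Serpinh1, the collagen chaperone HSP47, had 1192 ± 14.2 CPM in WT DMSO, 2767 ± 105 at 6 h and 486 ± 12.9 at 24 h (SD, n = 3). Its Nrf1KO levels were 1026 ± 9.45, 3196 ± 151 and 901 ± 13.1 CPM. Serpinh1 thus rose at 6 h in both lines (1.21 and 1.64) and was below DMSO at 24 h, by -1.30 in the WT and -0.19 in the Nrf1KO cells, with an interaction of 1.11 (standard error 0.050, adjusted p = 2.75e-18). Pcolce, which enhances removal of the C-propeptide, changed by -4.83 in the WT and -4.60 in the Nrf1KO cells at 24 h. Lox, which starts cross-linking, fell by 2.61 and 2.45, Adamts2, which removes the N-propeptide, by 2.46 in the WT cells, and Loxl3, a relative of Lox, and P4ha3, a further prolyl 4-hydroxylase subunit, by 3.21 and 2.64 in the Nrf1KO cells. Before CFZ, Lox (-0.85), Adamts2 (-0.83) and Bmp1 (-0.80), the C-propeptide protease, were lower in the Nrf1KO than in the WT cells, and Loxl3 (0.84), Pcolce (0.48) and P4ha1 (0.36) were higher.

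Of 10 collagen receptors 8 were tested. At 24 h 5 were lower (40.5% of all genes) and 0 higher (43.2%) in the WT cells, and 4 lower (41.1%) and 2 higher (44.4%) in the Nrf1KO cells, where the share lower was near that of all genes. Itga11, an integrin subunit that binds type I collagen, fell by 3.07 in the WT and 1.73 in the Nrf1KO cells, and Itga1 by 1.89 and 1.16 on the log2 scale. Mrc2, an uptake receptor for collagen, changed by -0.72 and -0.44. Itga2, another collagen-binding subunit, rose by 3.21 in the Nrf1KO cells. Itgb1, the shared beta subunit, went from 1289.7 ± 9.63 to 1261 ± 10.6 CPM in the WT cells (SD, n = 3), which was not called, and rose by 0.21 in the Nrf1KO cells. Ddr2, a receptor tyrosine kinase for fibrillar collagen, fell by 0.30 in the WT cells and went from 571 ± 11.6 to 596 ± 22.8 CPM in the Nrf1KO cells, which was not called. Of 18 listed genes of the TGF-beta pathway, a main inducer of collagen genes in fibroblasts, 18 were tested. At 24 h 5 were higher (43.2% of all genes) and 12 lower (40.5%) in the WT cells, and 8 higher (44.4%) and 10 lower (41.1%) in the Nrf1KO cells, where the share higher was that of all genes. Tgfb1, the ligand, changed by -0.53 and -0.28. Tgfbi, a target and matrix protein, changed by -3.34 and -2.24. Ctgf (also named Ccn2) fell by 1.09 in the WT and 3.16 in the Nrf1KO cells. The ligand Tgfb3 (-1.10) and the signal transducer Smad3 (-1.09) were among the largest falls in the WT cells, the co-receptor Tgfbr3 (-1.45) in the Nrf1KO cells, and Smad7 (0.80 and 0.62) and Smurf1 (0.71 and 0.78), which restrain the pathway, were among the largest rises.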

How the data were processed

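RNA from 18 cultures was sequenced, 3 biological replicates in each of 6 groups. The authors made stranded mRNA libraries, sequenced paired 125-base reads and, per the labels, used STAR and DESeq2; versions, genome build, annotation and use of strand were not given in the sources used here. The deposited values are raw counts, whole reads per gene symbol without normalization. The library totals limit the precision of low members, and counting limits cover counting error only. A symbol that appeared more than once was kept as its own row (2 such symbols).

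Counts were analysed with edgeR 4.0.16 in R 4.3.3, with filterByExpr (minimum count 10, minimum total 15), TMM scaling, a quasi-likelihood model with 6 group means fitted to the 18 libraries and Benjamini-Hochberg adjustment over 11762 genes, threshold 0.05. There were 11 comparisons. A standard error is the log2 fold change divided by the square root of F. Replicates varied little (common biological coefficient of variation 3.13%), and small changes pass the test. Chi-square per degree of freedom between replicates was 1.44 to 8.47, so no pair agreed within sampling noise. The tests were tested on simulated data. Levels per kb use the transcript with the longest coding sequence, and positions come from GENCODE M21 on GRCm38, to which all 44 members matched by symbol. Neither need be the annotation the authors used.

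The members and gene lists were chosen with earlier results of these data known. Values in every library are given for Col1a1, Col1a2, Col3a1, Col5a1, Col5a2, Col6a1, Col6a2, Col6a3, Col4a1, Col4a2 and Col12a1, and for the called member with the largest rise and fall in each structural class. Of the other lists, Serpinh1, P4ha1, P4hb, Plod2, Lox, Itgb1, Ddr2, Tgfb1 and the 3 largest called rises and falls are named for the comparisons described. P4ha2 is also named for both times and Col5a3, Col9a3, Col11a1, Col11a2, Col2a1, Col16a1, Col4a5, Col6a4, Col7a1 and Col17a1 are given by group. Alternatives were DESeq2 1.42.0, upper-quartile scaling, library size alone, no expression filter, a mean count of at least 10, only the groups compared, the replicate block, a minimum fold of 2 and each library left out in turn.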

Additional observations from a re-analysis of the deposited data

Results flagged for a closer look

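The response to CFZ differed between the lines, by the interaction in edgeR's quasi-likelihood test, for 10 of the 29 members at 6 h (38.3% of all genes tested) and 24 at 24 h (59.8%), and at 6 h the members' share was no higher than that of all genes. At 6 h the log2 response of the Nrf1KO cells minus that of the WT cells was 1.08 for Col27a1, 0.69 for Col11a1, 0.57 for Col6a3, 0.49 for Col5a1, 0.42 for Col1a1, 0.35 for Col5a3, 0.25 for Col4a6, 0.19 for Col6a1, 0.18 for Col3a1 and -0.16 for Col4a5. Those of Col1a1 and Col6a3 were not called by DESeq2 (adjusted p = 0.0866 and 0.0562). Col3a1 lost its call at 6 h without replicate 1 of WT DMSO (adjusted p = 0.0975) or replicate 3 of WT CFZ 6 h (0.159). Col6a1 lost its own without replicate 1 of WT DMSO (0.105), replicate 2 or 3 of WT CFZ 6 h (0.0524 and 0.108) or replicate 3 of Nrf1KO DMSO (0.0615).

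At 24 h the positive values were 2.0 for Col3a1, 1.40 for Col11a1, 1.23 for Col27a1, 1.15 for Col11a2, 1.12 for Col20a1, 1.06 for Col6a3, 0.96 for Col1a2, 0.93 for Col18a1, 0.88 for Col10a1, 0.77 for Col5a1, 0.65 for Col4a6, 0.56 for Col5a2, 0.49 for Col6a1, 0.38 for Col6a2, 0.29 for Col16a1 and 0.15 for Col4a1. The negative values were -5.80 for Col22a1 (a fit to few counts), -1.12 for Col5a3, -0.98 for Col28a1, -0.95 for Col7a1, -0.70 for Col12a1, -0.59 for Col4a5, -0.48 for Col8a1 and -0.43 for Col4a2. Col10a1 lost its call without replicate 1 of WT DMSO (adjusted p = 0.201), replicate 3 of WT DMSO (0.0573) or replicate 2 of WT CFZ 24 h (0.0525). Col28a1 lost its call without replicate 1 of WT DMSO (0.0699), replicate 2 or 3 of WT CFZ 24 h (0.0646 and 0.0912), replicate 2 of Nrf1KO CFZ 24 h (0.157) and with DESeq2 (0.0582). Col4a1, at an adjusted p of 0.0441, was over 0.05 with library size alone (0.326), with only the groups compared (0.0646), with DESeq2 (0.0568) and without each of 12 libraries, from 0.0529 to 0.171, the highest without replicate 1 of Nrf1KO CFZ 24 h.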

How the results depend on the processing

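None of the 240 called pairs of member and comparison changed direction under any alternative. Apart from the minimum fold, a call was lost in 109 and gained in 9 of 6033 outcomes under the alternatives, with 14 of the losses under DESeq2. At 6 h the members lower in the WT cells went from 18 to 16 with DESeq2 and to 22 with library size alone. In the Nrf1KO cells they went from 14 to 12 and to 17. Members higher and lower with a minimum fold of 2 are given with the counts among all 11762 genes in brackets. They were 0 and 3 in WT cells at 6 h (468 and 665) and 0 and 1 in Nrf1KO cells (388 and 501). From 6 h to 24 h they were 3 and 14 in WT cells (607 and 814). The Nrf1KO cells had 2 and 13 (772 and 1084). Against the WT cells, the Nrf1KO cells had 4 and 2 in DMSO (376 and 208). After CFZ they had 4 and 1 at 6 h (507 and 353) and 5 and 5 at 24 h (789 and 651). For the interaction the members were 1 and 0 at 6 h (142 and 185) and 6 and 2 at 24 h (479 and 533). The 1 member higher in the WT cells at 6 h became 0 with upper-quartile scaling, library size alone or DESeq2, 2 with only the groups compared, and 0 to 2 as each library was left out. The 1 negative interaction at 6 h became 0 to 1 as each library was left out. Receptors higher in the WT cells at 6 h went from 1 to 0 with upper-quartile scaling or library size alone, to 2 with only the groups compared and 1 to 2 as each library was left out (2 without replicate 2 of WT CFZ 6 h, or replicate 1 or 3 of Nrf1KO CFZ 24 h). Receptors lower in the Nrf1KO cells at 6 h went from 2 to 1 with DESeq2 and 1 to 2 as each library was left out (1 without replicate 1 of Nrf1KO DMSO or replicate 2 of Nrf1KO CFZ 6 h), and those higher at 24 h from 2 to 1 with library size alone. At 24 h, apart from the minimum fold, members lower ranged from 21 to 22 in the WT and from 19 to 25 in the Nrf1KO cells. Of all genes called at 6 h in the WT cells 49.6% were higher, and 35.4% under library size alone. Depth limits the members under 10 CPM.

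Over all genes the replicate numbers did not pair libraries, since the deviations of those with the same number had a mean correlation of 0.0136 (-0.0494 to 0.0972 over 45 pairs) and 8 of the 18 libraries went best with their own number. Over the 29 members the mean was 0.0886 (-0.632 to 0.704), 24 of the 45 pairs were over 0.1 and 10 libraries went best with their own number, while replicate 1 had the highest collagen share of its group in 6 of the 6 groups. With the replicate block 2 members were higher in the WT cells at 6 h in place of 1, and at 24 h 21 members were lower in each line and 17 had a positive and 8 a negative interaction, Col1a1 being called with the block (adjusted p = 0.00235) and not without it (0.0729).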
